A study of Rattus norvegicus with 36 samples.

Results

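The genes of fatty acid and triglyceride synthesis were followed in rat liver across 5 doses of decabromodiphenylethane (DBDPE), a brominated flame retardant. The set holds 37 genes, listed by gene symbol for their role in the pathway, of 14217 genes with a probe set that names 1 gene. Where several probe sets name a gene, the one with the highest mean over the arrays stands for it. All groups were male Sprague Dawley rats from Harlan, aged 7 weeks when dosing began, with food and water freely available. They were gavaged on 5 consecutive days with corn oil alone (vehicle) or with DBDPE in corn oil in 5 ml/kg body weight. The lowest dose was 0.1 mg/kg, followed by 0.97 and 9.71 mg/kg, and the 2 highest were 97.1 mg/kg and 970 mg/kg. There were 6 animals in each of the 6 groups, and RNA of the left liver lobe, taken 1 day after the last dose, was hybridised to 1 Affymetrix 3′ expression array per sample. Values are log2 signals, so that a difference of 1 is a 2-fold difference, and the level of one probe set cannot be set against that of another.

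In liver, citrate leaves the mitochondrion and is turned by ATP citrate lyase into acetyl-CoA, which acetyl-CoA carboxylase and fatty acid synthase build up into palmitate. Desaturases and elongases shape the chain, acyl-CoA synthetases activate it, and a sequence of acyltransferases and phosphatases attaches it to glycerol to give triglyceride, which is stored in droplets or exported in lipoproteins. The pathway is known as one of the most diet-sensitive of the liver: insulin drives it through SREBP-1c (Srebf1) and glucose through ChREBP (Mlxipl), and fasting shuts it down.

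The labelled tissue was borne out by its markers. The average of 4 hepatocyte markers, among them Alb and Ttr, had group means of 14.09 to 14.12, near the top of the scale. By their mean over the 36 arrays, 4 of 5 adipocyte markers and 4 of 5 pancreatic acinar markers lay below every array median (5.07 to 5.12). The exceptions were the adipocyte marker Cfd, with group means of 7.68 to 7.81, and the acinar marker Cela1, with 10.08 to 10.29. The adipocyte marker Fabp4 varied widely: single animals reached 6.76 at 9.71 mg/kg, against up to 6.72 in vehicle, and its group mean was 4.58 at 0.97 mg/kg and 4.52 at 970 mg/kg, against 5.42 in vehicle. Those log2 differences were -0.83 and -0.90 (unadjusted p = 0.0427 and 0.0292, limma adjusted p = 0.985 and 0.966), and the part of adipocyte RNA in the results was not tested. No marker of these types, or of Kupffer, endothelial or stellate cells, passed the limma test at any dose. Their mean levels lay between 4.68 and 5.25 for adipocyte markers and between 7.76 and 8.82 for Kupffer cell markers over the 36 animals. In whole liver, fewer cells of a type and less RNA per cell cannot be told apart. RNA integrity was read from beta-actin, whose 3′ probe set exceeded its 5′ probe set by 1.02 to 1.33 log2 units, and array pairs correlated at r = 0.993 to 0.997 across probe sets. Of the 37 genes, Acacb and Pnpla3 had mean signals below the lowest array median, where a probe set reads little transcript, so their differences may be understated.

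No gene of the set passed the test at any dose. In limma over all 36 animals, with Benjamini-Hochberg adjustment over 31042 probe sets and a threshold of 0.05, 0 of 37 genes passed at any of the 5 doses, by the F test over all doses, or by the slope on dose step. Among all probe sets the share called was 0% at each of the 3 lowest doses and 0.00644% at 97.1 mg/kg, at 970 mg/kg, by the F test and by the slope, 2 probe sets each. At an unadjusted p under 0.05, the 37 genes gave 2, 3, 2, 1 and 2 members from the lowest dose to the highest, all of them lower than vehicle. The share of all probe sets lower at that p was 2.15%, 2.46%, 2.63%, 2.70% and 2.49% in the same order, the share higher was 2.31%, 2.45%, 2.43%, 2.73% and 2.38%, and both together were 4.46%, 4.92%, 5.06%, 5.42% and 4.87%. The F test gave 2 members at an unadjusted p under 0.05 (4.18% of all probe sets). The slope gave 2, both falling with dose (3.02% of all probe sets fell and 2.67% rose at that p, 5.70% together). Without 1 vehicle animal, replicate 5, the slope also gave 2, with Dgat2 falling and Pgd rising (limma unadjusted p = 0.0355 and 0.0371).

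How large a change could have been missed differed by gene. The 95% interval of the log2 difference lay within a 1.5-fold change in either direction for 31 of the 37 genes at 970 mg/kg and at 97.1 mg/kg, and for 32, 33 and 34 at 0.1, 0.97 and 9.71 mg/kg. That was 83.8% to 91.9% of the 37 genes over the doses, against 97.7% to 97.9% of all probe sets. A 2-fold change lay outside the interval for 36 genes at 970 mg/kg and for all 37 at 97.1 mg/kg. At 0.1, 0.97 and 9.71 mg/kg it did for 35, 36 and 35 genes. The exception at 970 mg/kg was Lpin1, with an interval of -1.02 to 0.48. No gene had all 6 animals of a dose outside the vehicle range on 1 side, where 0.139%, 0.235%, 0.180%, 0.151% and 0.200% of all probe sets did from the lowest dose to the highest.

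Most of the 37 genes had a mean below that of vehicle at every dose, and the count was smaller without 1 vehicle animal. From the lowest dose to the highest, 30, 30, 26, 26 and 29 genes lay below vehicle, with median log2 differences of -0.08, -0.05, -0.04, -0.04 and -0.07, whereas 50.4%, 50%, 50.9%, 49.5% and 51.9% of all probe sets did. By the slope, 21 genes lay below 0 (51.2% of all probe sets). The 5 doses share the same vehicle animals, so these counts are not 5 separate observations. Vehicle replicate 5 had the highest signal of the 6 vehicle animals for 19 of the 37 genes, and 33 of the 37 lay above their median over 36 animals, against 9 to 28 in the other animals. Without it, 27, 23, 23, 17 and 23 genes lay below vehicle, with medians of -0.04, -0.02, -0.0050, 0.0036 and -0.03, and 0 genes passed. By the slope, 16 genes lay below 0 without this animal. Its beta-actin difference, 1.06, and its array median, 5.07, lay near the low end over the 36 arrays (1.02 to 1.33 and 5.07 to 5.12). Whether RNA or array quality bears on its high signals was not tested.

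**Figure D1:**
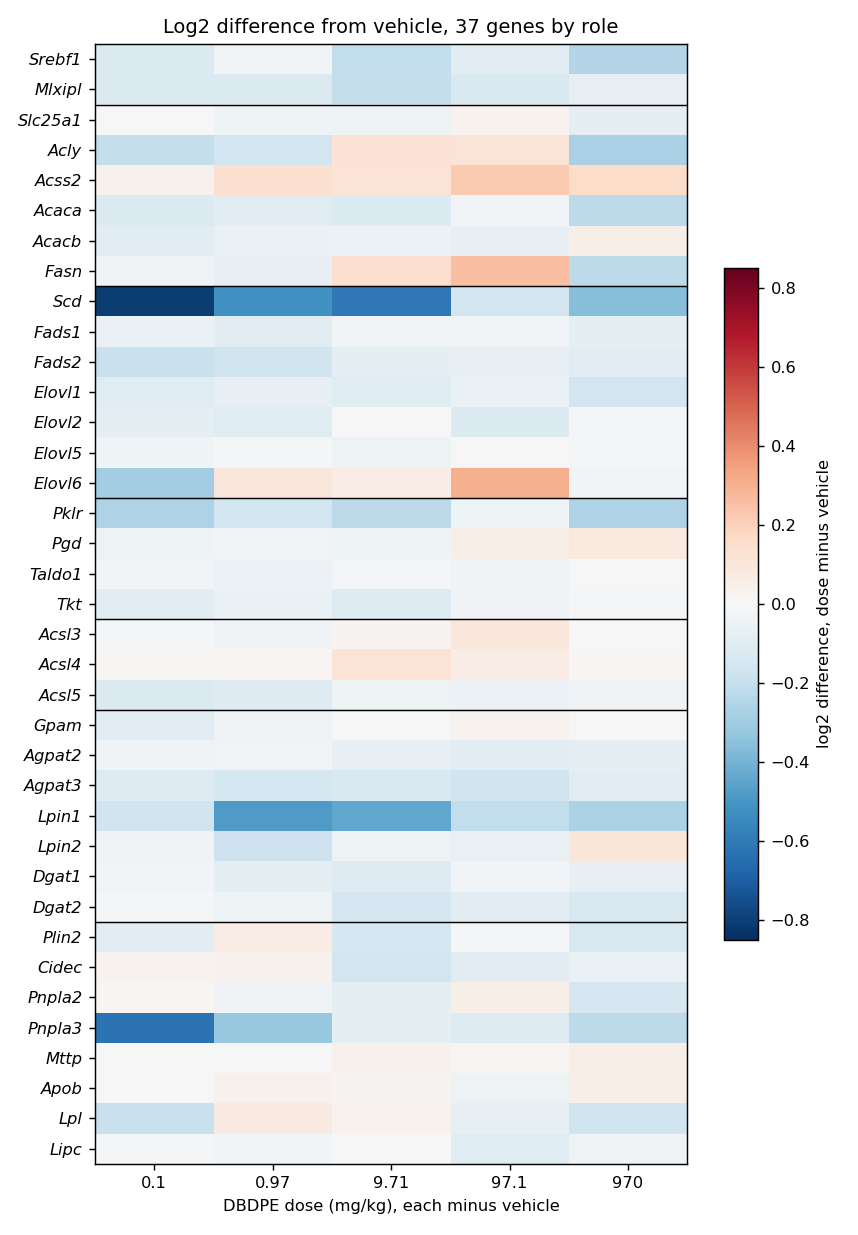
Log2 difference from vehicle (colour, dose minus vehicle) of each of the 37 genes (rows, grouped by role, with lines between roles) at 5 doses of DBDPE (columns). Blue cells outnumber red ones at each dose, the darkest being Scd at 0.1 mg/kg (-0.81), and no cell passed the limma test.

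Both transcription factors of the pathway had means below vehicle at every dose without passing, although for Srebf1 this held at 0.97 mg/kg only with vehicle replicate 5 (0.04 without it). Srebf1, which encodes the sterol regulatory element binding protein SREBP-1, ranged from 9.35 to 9.82 with a median of 9.58 at 970 mg/kg, against 9.60 to 10.17 with a median of 9.79 in vehicle. The ranges overlapped, with 3 of 6 animals at 970 mg/kg below every vehicle animal, and the log2 difference was -0.25 (95% interval -0.53 to 0.03, limma adjusted p = 0.966). Its differences at the lower doses ran from -0.21 at 9.71 mg/kg to -0.03 at 0.97 mg/kg. Mlxipl, which encodes the glucose-responsive factor ChREBP, ranged from 6.70 to 7.22 with a median of 6.98 at 9.71 mg/kg, against 7.01 to 7.36 with a median of 7.20 in vehicle. That was its largest difference, -0.20 (95% interval -0.36 to -0.05, unadjusted p = 0.0125, limma adjusted p = 0.967), and at 970 mg/kg it was -0.07.

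The 6 genes that carry carbon from citrate and acetate to palmitate showed no common direction across doses. Of them, 2, 1, 3, 4 and 2 lay above vehicle from the lowest dose to the highest. Fasn, fatty acid synthase, had medians of 9.36 in vehicle and 9.34, 9.24, 9.44, 9.62 and 9.15 with rising dose. Fasn values ran from 8.52 to 9.79 at 970 mg/kg, against 8.85 to 9.94 in vehicle, and at 97.1 mg/kg from 9.36 to 9.94. The log2 difference was -0.22 at 970 mg/kg (95% interval -0.60 to 0.16, limma adjusted p = 0.972) and 0.26 at 97.1 mg/kg (-0.12 to 0.63, limma adjusted p = 0.984). Without vehicle replicate 5 they were -0.11 and 0.37. The 6 animals at 970 mg/kg fell into 3 below every vehicle animal and 3 within the vehicle range.

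Acly encodes the citrate lyase that makes cytosolic acetyl-CoA. Its values ran from 9.70 to 11.03 with a median of 10.38 at 970 mg/kg, against 10.09 to 11.47 with a median of 10.56 in vehicle, a log2 difference of -0.28 (-0.65 to 0.10, limma adjusted p = 0.966), and 2 animals at that dose lay below every vehicle animal. The difference was -0.11 without vehicle replicate 5. At 9.71 and 97.1 mg/kg it was 0.12 and 0.11 with all animals, and 0.29 and 0.27 without that one. Acaca, the acetyl-CoA carboxylase that commits carbon to fat, ranged from 7.87 to 8.25 with a median of 8.13 at 970 mg/kg, against 8.10 to 8.79 with a median of 8.22 in vehicle. Its log2 difference was -0.22 (-0.41 to -0.04, unadjusted p = 0.0202, limma adjusted p = 0.966). Without vehicle replicate 5, the highest animal of all 36 for Acaca at 8.79, it was -0.13 (unadjusted p = 0.125). Acacb, the carboxylase form tied to control of fatty acid oxidation, had 0.05 at 970 mg/kg. The mitochondrial citrate carrier gene Slc25a1 had -0.08 and Acss2, which makes acetyl-CoA from acetate, had 0.16. Acss2 was the 1 gene of these 6 above vehicle at all 5 doses, from 0.04 at 0.1 mg/kg to 0.22 at 97.1 mg/kg, none past the test.

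Among the desaturases and elongases lay the smallest p of the set, that of Scd at the lowest dose. Scd encodes stearoyl-CoA desaturase, which makes the monounsaturated oleate and palmitoleate used in triglyceride. At 0.1 mg/kg its values ran from 9.80 to 10.55 with a median of 9.98, against 10.29 to 11.93 with a median of 10.64 in vehicle. Of the 6 animals at that dose, 5 lay below every vehicle animal. The log2 difference was -0.81 (95% interval -1.29 to -0.33), or 0.572 times the vehicle level, with an unadjusted p of 0.00164 and a limma adjusted p of 0.999. Vehicle replicate 5 had the highest Scd signal of all 36 animals, 11.93, and without it the difference was -0.59 (unadjusted p = 0.0109).

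Scd did not follow the order of the doses. Its log2 difference was -0.51 at 0.97 mg/kg (unadjusted p = 0.0363), -0.61 at 9.71 mg/kg (unadjusted p = 0.0143), -0.16 at 97.1 mg/kg and -0.36 at 970 mg/kg. The slope per dose step was 0.0015 (95% interval -0.09 to 0.09), and the F test over doses gave an unadjusted p of 0.0185 and a limma adjusted p of 0.999. The 6 animals at 970 mg/kg lay close together for Scd, from 10.26 to 10.69 with a median of 10.56, and 1 of them lay below every vehicle animal. Without vehicle replicate 5 the differences at 0.97 and 9.71 mg/kg were -0.30 and -0.40 (limma unadjusted p = 0.180 and 0.0809). Those at 97.1 and 970 mg/kg were then 0.05 and -0.15.

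Fads2, the delta-6 desaturase of polyunsaturated fat, was lower at 0.1 and 0.97 mg/kg, without passing. It ranged from 10.90 to 11.32 with a median of 11.16 at 0.1 mg/kg, against 11.26 to 11.44 with a median of 11.31 in vehicle. This is a log2 difference of -0.19 at 0.1 mg/kg (-0.32 to -0.07, unadjusted p = 0.00399) and of -0.17 at 0.97 mg/kg (-0.29 to -0.04, unadjusted p = 0.0111), with limma adjusted p of 0.999 and 0.985. In those groups 5 and 4 of 6 animals lay below every vehicle animal. The F test for Fads2 gave an unadjusted p of 0.0470. Without vehicle replicate 5 the differences were -0.17 and -0.15 (unadjusted p = 0.0132 and 0.0323).

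Elovl1, an elongase of saturated very long chains, had the smallest p of the 37 genes at 970 mg/kg. Its values ran from 8.43 to 8.63 with a median of 8.49 at 970 mg/kg, against 8.57 to 8.77 with a median of 8.66 in vehicle, and 5 of 6 animals lay below every vehicle animal. The log2 difference was -0.17 (-0.28 to -0.05, unadjusted p = 0.00520, limma adjusted p = 0.966), and the slope was -0.02 per dose step (unadjusted p = 0.0399, limma adjusted p = 0.863). In the F test its unadjusted p was 0.0996. Without vehicle replicate 5 the difference at 970 mg/kg was -0.14 and the slope -0.02 (limma unadjusted p = 0.0176 and 0.0934). Elovl6, which lengthens palmitate to stearate, varied more between animals than between doses: it ran from 6.53 to 7.78 at 970 mg/kg, against 6.36 to 7.86 in vehicle, with a difference of -0.02 (-0.48 to 0.44). Its highest mean was at 97.1 mg/kg, where the difference was 0.30 (-0.16 to 0.76, limma adjusted p = 0.984). Fads1, the delta-5 desaturase, and the elongases Elovl2 and Elovl5 had -0.08, -0.01 and -0.01 at 970 mg/kg.

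The genes that feed the pathway with carbon and NADPH had small differences. Pklr, the liver pyruvate kinase gene and a textbook ChREBP target, ranged from 8.77 to 9.04 with a median of 8.92 at 970 mg/kg, against 8.91 to 9.83 with a median of 9.04 in vehicle. The log2 difference was -0.26 both at 970 mg/kg (-0.54 to 0.02, unadjusted p = 0.0632) and at 0.1 mg/kg (-0.54 to 0.01, unadjusted p = 0.0589), with limma adjusted p of 0.966 and 0.999. Without vehicle replicate 5, again the highest of 36 at 9.83, both were -0.13. Tkt, transketolase of the pentose phosphate pathway, had -0.11 at 9.71 mg/kg (-0.22 to 0.0008, unadjusted p = 0.0517, limma adjusted p = 0.978). There it ranged from 10.61 to 10.76 with a median of 10.70, against 10.68 to 10.95 with a median of 10.80 in vehicle. Pgd, the 6-phosphogluconate dehydrogenase that makes NADPH, and Taldo1, transaldolase, had 0.08 and -0.0043 at 970 mg/kg. The acyl-CoA synthetases Acsl3, Acsl4 and Acsl5, which activate free fatty acids, had -0.0027, 0.0087 and -0.03.

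In the triglyceride branch, Gpam, the mitochondrial acyltransferase of the entry step, sat at the vehicle level. It ranged from 6.17 to 6.96 with a median of 6.35 at 970 mg/kg, against 6.28 to 6.58 with a median of 6.39 in vehicle, a log2 difference of 0.0015 (-0.27 to 0.27). Dgat2, the acyltransferase of the last step, ranged from 10.57 to 10.96 with a median of 10.64 at 970 mg/kg, against 10.59 to 10.99 with a median of 10.84 in vehicle. The difference was -0.14 (-0.29 to 0.01, limma adjusted p = 0.966). Dgat2 had the smallest p of the 37 genes by the slope, -0.03 per dose step (95% interval -0.05 to -0.0042, unadjusted p = 0.0226, limma adjusted p = 0.863). Next by the slope after Elovl1 was Srebf1, with -0.04 per step (unadjusted p = 0.0940).

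Agpat3, one of the acyltransferases that make phosphatidic acid, ranged from 7.77 to 7.96 with a median of 7.80 at 97.1 mg/kg, against 7.89 to 8.11 with a median of 8.02 in vehicle. Agpat3 had a log2 difference of -0.17 at 97.1 mg/kg (-0.30 to -0.04, unadjusted p = 0.0139) and -0.15 at 0.97 mg/kg (-0.29 to -0.02, unadjusted p = 0.0269), with limma adjusted p of 0.90 and 0.985. Agpat3 has 5 further probe sets, which correlated with the one used at r = -0.11 to 0.63 over the 36 animals, so this probe set does not stand for them all. At 970 mg/kg Agpat2 had -0.09, Dgat1, the other enzyme of the last step, had -0.07, and Lpin2 had 0.10. Lpin1, a phosphatidate phosphatase gene, had -0.27 at 970 mg/kg, within a group that ran from 7.37 to 10.49, against 7.99 to 9.31 in vehicle. That value depended on single animals, with -0.72 without 970 mg/kg replicate 4, the top animal, and -0.10 without 970 mg/kg replicate 6.

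The genes of lipoprotein export were among the steadiest of the set. Mttp, the microsomal transfer protein that loads lipid onto apolipoprotein B, ranged from 10.98 to 11.32 with a median of 11.17 at 970 mg/kg, against 11.05 to 11.24 with a median of 11.08 in vehicle. The log2 difference was 0.05 (-0.05 to 0.16, limma adjusted p = 0.979). Apob, the structural protein of very low density lipoprotein, ranged from 13.37 to 13.60 with a median of 13.51 at 970 mg/kg, against 13.36 to 13.53 with a median of 13.45 in vehicle, a difference of 0.05 (-0.05 to 0.16, limma adjusted p = 0.976). Its signal is near the top of the scale, where arrays can compress differences, and a second Apob probe set had 0.25 (limma adjusted p = 0.966). Lipc, hepatic lipase, had -0.10 at 97.1 mg/kg (-0.20 to 0.0026, unadjusted p = 0.0557), with values from 11.68 to 11.93 and a median of 11.85, against 11.78 to 11.998 and a median of 11.94 in vehicle. At 970 mg/kg Lpl, lipoprotein lipase, had -0.17, and of the droplet genes Plin2 had -0.14, Cidec -0.05, Pnpla2, the adipose triglyceride lipase, -0.14 and Pnpla3, adiponutrin, -0.22. The sign of the Pnpla3 difference turned without vehicle replicate 5, to 0.15. None of these 8 genes passed at any dose.

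**Figure D2:**
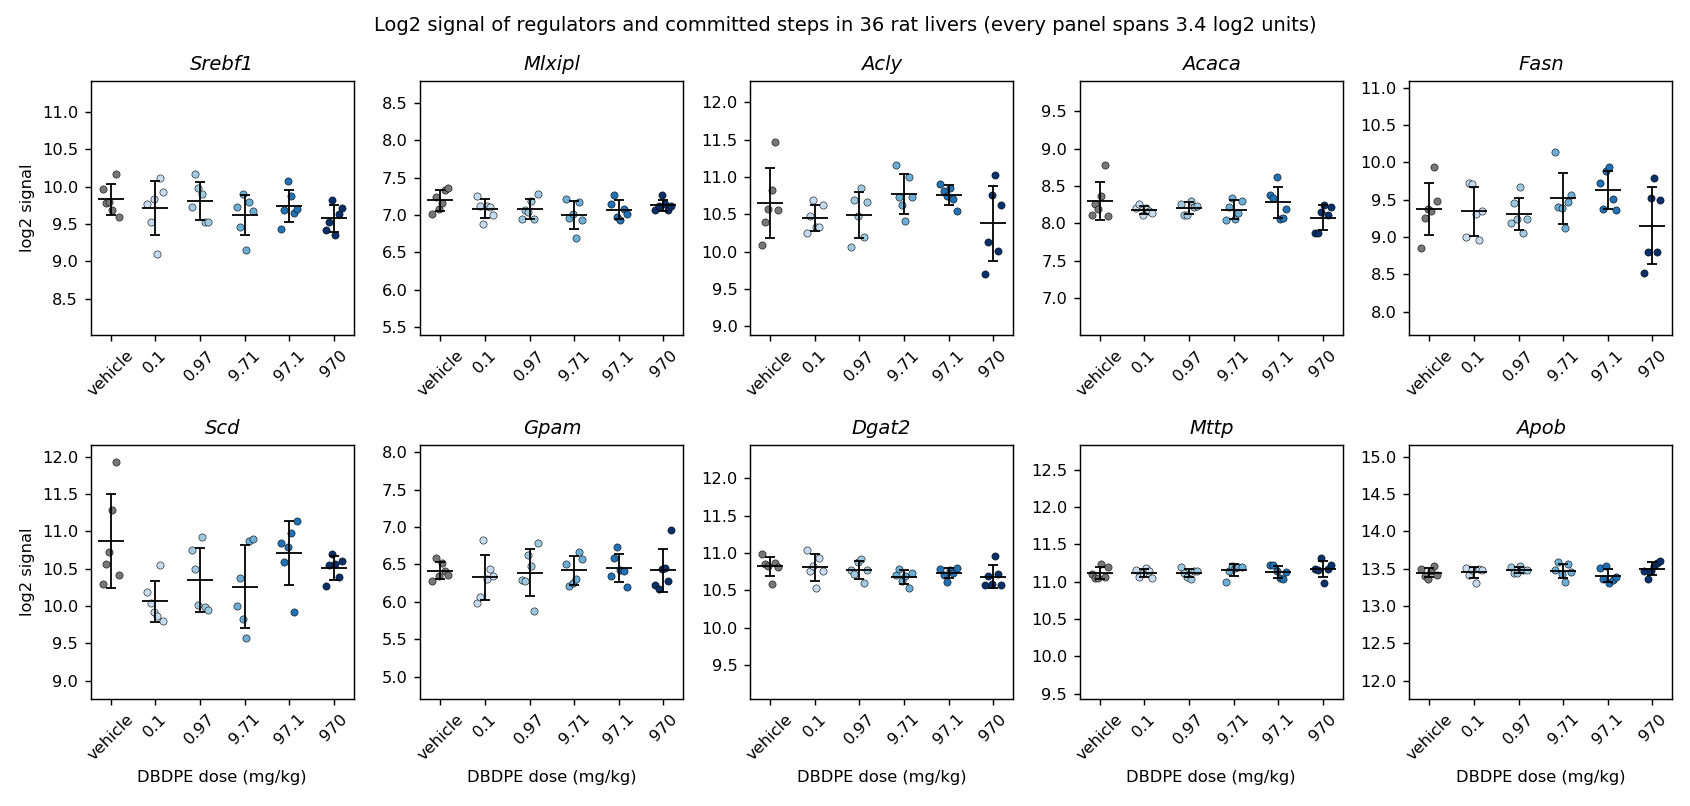
Log2 signal of 10 genes in every animal (points) by dose of DBDPE in mg/kg, with the group mean and SD (black bars, n = 6), and each panel spanning the same number of log2 units. Scd, Fasn and Acly spread widely within groups, Mttp and Apob narrowly, and the animals of every dose overlap those of vehicle.

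Other genes of the pathway gave no call either. From a fixed list of 42 such genes, 36 were measured, and 0 passed in limma at any dose. At an unadjusted p under 0.05 there were 1, 1, 3, 2 and 1 genes from the lowest dose to the highest, 2.78% to 8.33% of the list, near the 4.46% to 5.42% of all probe sets at that p. Plin3, a droplet coat protein gene, had -0.19 at 0.1 mg/kg and -0.23 at 0.97 mg/kg. Angptl4, an inhibitor of lipoprotein lipase, had 0.61 at 9.71 mg/kg, Insig1, which holds the SREBP escort in the endoplasmic reticulum, had 0.61, and Abhd5, the co-activator of Pnpla2, had 0.20. Mid1ip1 and Acot1 had 0.61 and 0.36 at 97.1 mg/kg, and Tm6sf2 had -0.14 at 970 mg/kg. The list's median log2 difference lay between -0.01 and 0.04 over the doses, and that of all probe sets between -0.0040 and 0.0010.

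The spread between animals given the same dose was larger than any difference from vehicle for several of these genes, among them Lpin1, Lpl, Elovl6, Fasn and Acly. The pooled within-group SD had a median of 0.15 over the 37 genes and 0.14 over all probe sets, and 13 of the 37 lay in the top 10% of all probe sets (SD of 0.21 or more). The most variable were Lpin1 (0.69), Pnpla3 (0.62), Lpl (0.48), Scd (0.44) and Elovl6 (0.42). Fasn had 0.35 and Acly 0.34. The least variable were Taldo1 (0.05), Fads1 (0.07), Apob (0.08), Lipc (0.08) and Mttp (0.08). Over all 36 animals the highest signal was 8.71 times the lowest for Lpin1, 5.11 times for Scd and 3.08 times for Fasn, and 1.14 times for Taldo1. Pnpla3, below the array medians on average, is given no fold range, and its spread includes that of a signal near background.

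Single animals made part of that range. Lpin1 ran from 7.37 to 10.49 at 970 mg/kg, with a median of 7.93 and replicate 4 at the top, and from 7.99 to 9.31 with a median of 8.27 in vehicle. Pnpla3 ran from 3.97 to 5.53 with a median of 4.80 at 970 mg/kg, against 3.99 to 6.86 with a median of 4.81 in vehicle, where replicate 5 was the top animal. Lpl, made mainly by cells other than hepatocytes in adult tissue, ran from 6.05 to 7.34 with a median of 6.53 at 970 mg/kg, against 5.87 to 7.41 with a median of 7.03 in vehicle. In all 3 genes the vehicle animals spread over more than a 2-fold range by themselves.

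**Figure D3:**
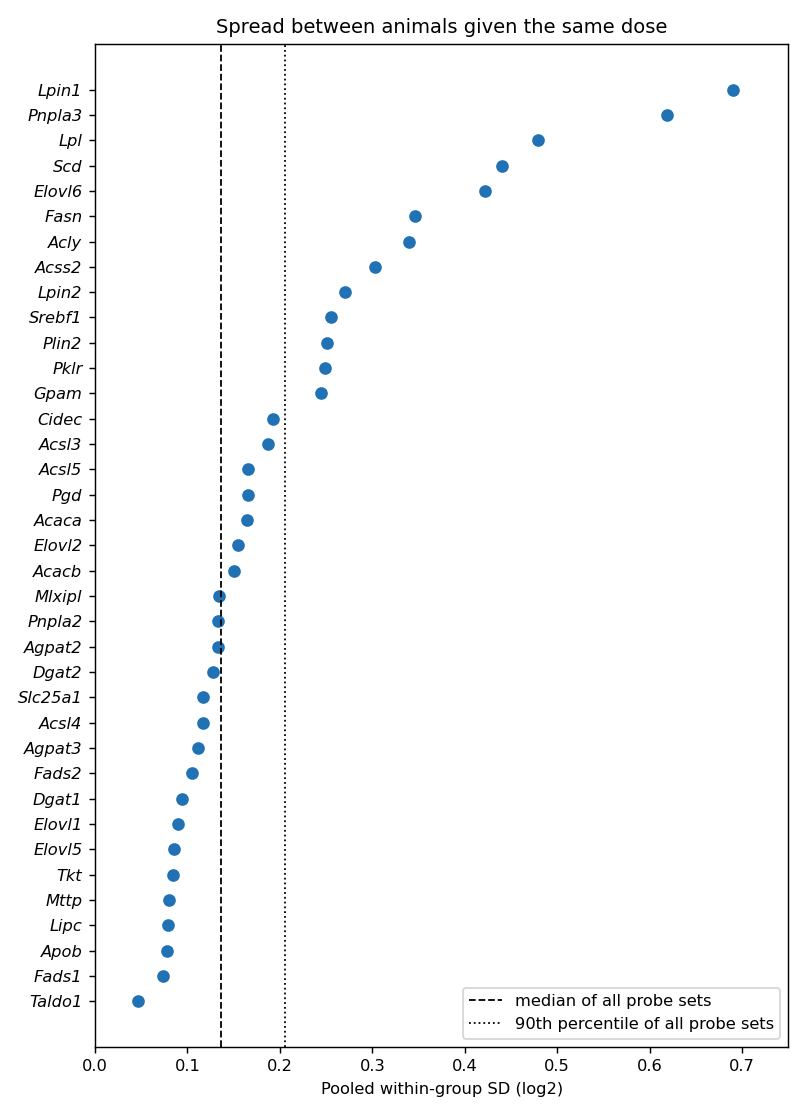
Pooled within-group SD of the log2 signal (x axis) of each of the 37 genes (rows), with the median (dashed, 0.14) and the 90th percentile (dotted, 0.21) of all probe sets. Lpin1 and Pnpla3 lie farthest right and 13 genes lie beyond the dotted line.

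To ask which genes vary together between animals, Fasn was set against 58 measures over the 36 animals: the other 36 genes, 19 further genes and 3 technical measures. Of the 36 genes, 8 correlated positively with Fasn past a Benjamini-Hochberg adjusted p of 0.05 over the 58 (permutation test, two-sided) and 0 negatively. All 8 had r of 0.48 or more. That is 22.2% of the genes, where 0.509% of the probe sets of other genes or of none had an r as high and 0.226% an r as low as that of Insig2, the negative relation that passed, probe sets sharing the same 36 arrays. The 8 were Acly, Elovl6, Slc25a1, Pnpla3, Pgd, Acsl3, Acss2 and Acaca.

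Acly was the closest, and of all probe sets that name another gene or none it had the highest r with Fasn. Its r was 0.87 and its rho 0.84 (permutation p = 1e-05 for both, the smallest that 100000 permutations can give, adjusted p = 1.933e-04 and 5.800e-04). It held at r = 0.82 without the 2 animals farthest from the Fasn median, 970 mg/kg replicate 1 (8.52) and 9.71 mg/kg replicate 1 (10.14), and at r = 0.86 with the group means removed. Within single groups of 6 it lay between 0.55 and 0.99. The r between Fasn and Acly was thus above 0 within every dose group, vehicle included, although r within single groups was not tested.

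Elovl6 had r = 0.72 and rho = 0.66 (permutation p = 1e-05 and 7.000e-05, adjusted p = 1.933e-04 and 9.280e-04), 0.66 without the 2 farthest animals and 0.75 with group means removed. Slc25a1 had r = 0.62 and rho = 0.47 (permutation p = 9.000e-05 and 0.00475, adjusted p = 8.700e-04 and 0.0306), but 0.46 without the 2 farthest and -0.64 within the 0.1 mg/kg group. Pnpla3 had r = 0.61 and rho = 0.61 (permutation p = 8.000e-05 for both, adjusted p = 8.700e-04 and 9.280e-04), 0.54 without the 2 farthest. For these 3 genes r stayed past the threshold in all 48 alternatives tried.

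The remaining 4 had a lower r over the 36 animals. Pgd had r = 0.53 and rho = 0.50 (permutation p = 9.500e-04 and 0.00190, adjusted p = 0.00689 and 0.0157), and 0.50 without the 2 farthest. With group means removed it had r = 0.64, and it too stayed past the threshold in all 48 alternatives. Acss2 had r = 0.50 and rho = 0.49 (permutation p = 0.00184 and 0.00285, adjusted p = 0.00970 and 0.0207), and 0.47 without them. Acsl3 had r = 0.52 and rho = 0.37 (permutation p = 0.00118 and 0.0253, adjusted p = 0.00708 and 0.113), so it did not pass by rank. Acaca had r = 0.48 and rho = 0.30 (permutation p = 0.00311 and 0.0754, adjusted p = 0.0150 and 0.230) and did not pass by rank either. For Acaca, r did not pass without vehicle replicate 5 (0.42, adjusted p = 0.0596), 970 mg/kg replicate 1 (0.40, adjusted p = 0.0710) or 970 mg/kg replicate 2 (0.43, adjusted p = 0.0559), and was 0.29 without the 970 mg/kg group.

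**Figure D4:**
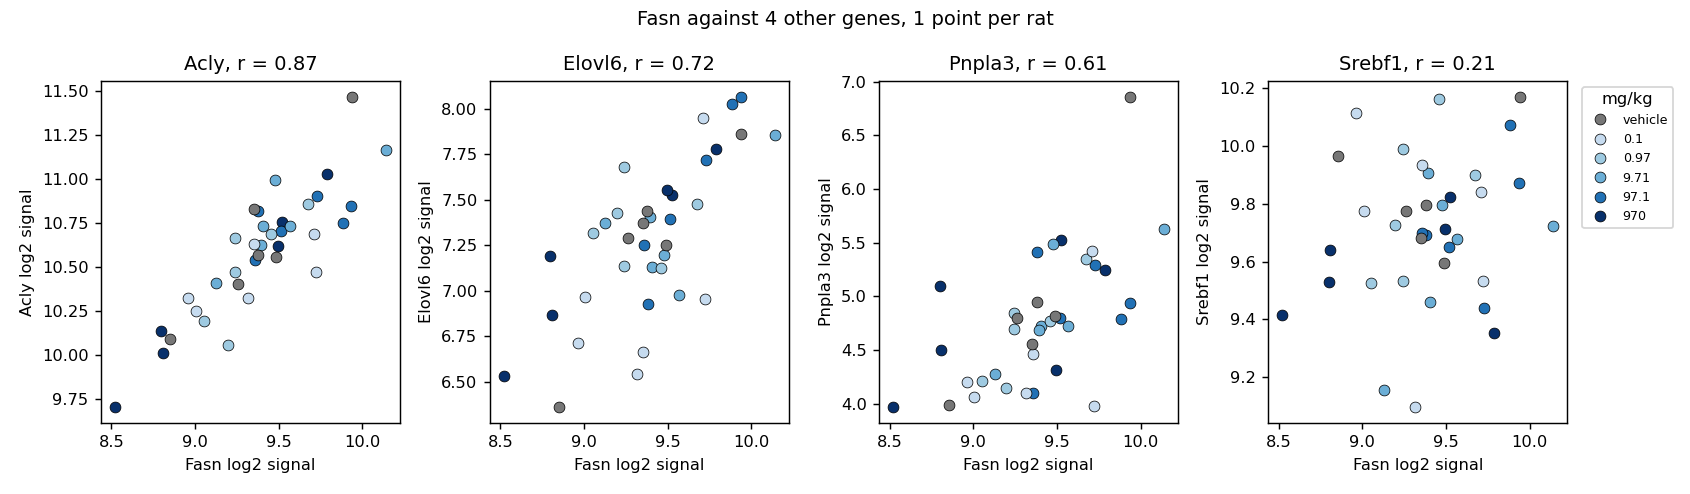
Log2 signal of Fasn (x axis) against that of Acly, Elovl6, Pnpla3 and Srebf1 (y axes), 1 point per rat, coloured by dose in mg/kg. Acly rises with Fasn at every dose (r = 0.87), Elovl6 and Pnpla3 less tightly (0.72 and 0.61), and Srebf1 shows little relation (0.21).

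Neither transcription factor gene passed with Fasn. Srebf1 had r = 0.21 and rho = 0.19 (permutation p = 0.230 and 0.262, adjusted p = 0.420 and 0.447), and Mlxipl had r = 0.16 and rho = 0.16 (permutation p = 0.364 and 0.357, adjusted p = 0.528 and 0.517). With group means removed Srebf1 had r = 0.21 and Mlxipl r = 0.31, and within single groups r for Mlxipl ran from -0.60 to 0.78. The lowest r of the 36 genes were those of Lipc (r = -0.37, rho = -0.36), Mttp (-0.32 and -0.23), Lpl (-0.30 and -0.34) and Elovl2 (-0.25 and -0.17), with adjusted permutation p of 0.0885 or more for r and 0.129 or more for rho. Scd had r = 0.29 and rho = 0.34 (permutation p = 0.0891 and 0.0439, adjusted p = 0.235 and 0.150). Of the technical measures, the Gapdh 3′ minus 5′ difference had r = 0.20, the beta-actin difference -0.16 and the array median 0.02, with adjusted permutation p of 0.420, 0.524 and 0.962. With group means removed the Gapdh difference had r = 0.40 with Fasn (unadjusted permutation p = 0.0177), and its r was above 0 in all 6 groups, from 0.0007 to 0.79. Its part in the relations with Fasn was not tested.

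Of the 19 further genes, 4 passed. Insig1 had r = 0.66 and rho = 0.67 (permutation p = 1e-05 and 2.000e-05, adjusted p = 1.933e-04 and 5.800e-04) and 0.52 without the 2 farthest animals. Thrsp, the Spot14 gene that rises with lipogenesis, had r = 0.64 and rho = 0.64 (permutation p = 8.000e-05 and 5.000e-05, adjusted p = 8.700e-04 and 9.280e-04), and 0.55 without them. Me1, the malic enzyme that makes NADPH, had r = 0.53 and rho = 0.60 (permutation p = 8.400e-04 and 1.800e-04, adjusted p = 0.00689 and 0.00174) and 0.61 without them. Insig2 ran the other way, with r = -0.52 and rho = -0.45 (permutation p = 0.00122 and 0.00626, adjusted p = 0.00708 and 0.0363). It did not pass without the 2 farthest animals (r = -0.43, adjusted p = 0.0561) or without the 970 mg/kg group (-0.22, adjusted p = 0.426). Insig2 passed in 46 of the 48 alternatives, and its r was -0.45 with group means removed. The fasting and clock genes tested, among them Pck1, Pdk4, Cpt1a, Per1 and Nr1d1, did not pass. The nearest was Per2, with r = 0.37 and rho = 0.32 (permutation p = 0.0280 and 0.0588, adjusted p = 0.0955 and 0.190), which passed without the vehicle group (0.51) and without vehicle replicate 1 (0.44).

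RefSeq gives a promoter for 29 of the 37 genes in assembly GRCr8 (33 entries), each from 250 bases before to 50 after the start of the gene. Among the 8 genes that varied with Fasn, 6 have one, and they are shown because they moved together between animals. Each is read 5′ to 3′ along the gene's own strand. Capitals mark matches, on either strand, to CCAAT (the NF-Y box), GGGCGG (the Sp1 box), CACGTG (an E-box) or TCACNCCAC (a sterol regulatory element). In Acsl3 a CCAAT match is followed directly by a GGGCGG match, without overlap.
Acly, chr10:85963582-85963881, minus strand: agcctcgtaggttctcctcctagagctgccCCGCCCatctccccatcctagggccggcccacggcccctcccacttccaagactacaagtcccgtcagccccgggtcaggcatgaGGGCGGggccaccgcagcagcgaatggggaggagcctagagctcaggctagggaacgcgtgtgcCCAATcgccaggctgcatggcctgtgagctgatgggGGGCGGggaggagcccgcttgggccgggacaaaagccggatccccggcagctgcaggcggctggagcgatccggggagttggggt
Slc25a1, chr11:96559804-96560103, plus strand: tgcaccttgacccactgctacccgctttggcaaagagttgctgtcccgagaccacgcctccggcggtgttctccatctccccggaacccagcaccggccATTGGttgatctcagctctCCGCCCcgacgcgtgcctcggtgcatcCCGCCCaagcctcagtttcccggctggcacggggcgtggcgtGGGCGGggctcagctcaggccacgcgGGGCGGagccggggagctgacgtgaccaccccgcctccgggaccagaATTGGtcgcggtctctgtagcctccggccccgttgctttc
Pnpla3, chr7:117173278-117173577, plus strand: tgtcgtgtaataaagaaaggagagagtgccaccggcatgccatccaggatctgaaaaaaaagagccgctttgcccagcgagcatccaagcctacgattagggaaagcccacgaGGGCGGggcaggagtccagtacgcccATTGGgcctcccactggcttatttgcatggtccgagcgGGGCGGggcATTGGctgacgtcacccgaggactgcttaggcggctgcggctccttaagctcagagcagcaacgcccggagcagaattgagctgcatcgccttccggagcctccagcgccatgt
Pgd, chr5:164881980-164882279, minus strand: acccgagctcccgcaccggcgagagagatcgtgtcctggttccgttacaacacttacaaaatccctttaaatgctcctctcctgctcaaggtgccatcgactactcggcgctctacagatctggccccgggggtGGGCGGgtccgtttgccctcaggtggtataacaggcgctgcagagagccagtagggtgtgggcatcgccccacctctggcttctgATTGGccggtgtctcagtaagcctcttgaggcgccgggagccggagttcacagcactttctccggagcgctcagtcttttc
Acsl3, chr9:87563351-87563650, plus strand: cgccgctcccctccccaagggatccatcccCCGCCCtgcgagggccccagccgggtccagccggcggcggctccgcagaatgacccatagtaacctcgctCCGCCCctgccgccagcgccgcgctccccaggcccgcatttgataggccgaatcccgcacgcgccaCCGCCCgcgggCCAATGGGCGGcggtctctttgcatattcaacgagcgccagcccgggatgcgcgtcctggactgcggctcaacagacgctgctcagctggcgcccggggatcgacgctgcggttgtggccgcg
Acss2, chr3:164464453-164464752, plus strand: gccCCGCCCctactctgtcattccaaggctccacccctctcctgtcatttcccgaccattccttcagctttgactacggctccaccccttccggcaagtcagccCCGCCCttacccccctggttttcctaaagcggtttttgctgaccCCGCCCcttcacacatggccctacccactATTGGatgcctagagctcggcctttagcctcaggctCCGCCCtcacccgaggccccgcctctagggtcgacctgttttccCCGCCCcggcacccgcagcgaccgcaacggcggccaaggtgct

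All 6 hold at least 1 NF-Y and 1 Sp1 match, the 2 boxes that lie beside SREBP sites in well studied lipogenic promoters. Over all 33 entries of the 37 genes, 54.5% held the NF-Y box and 51.5% the Sp1 box, against 37.5% and 33.1% of the 33469 promoters of the table. The E-box was in 6.06% of entries, against 6.42% of all promoters, and the sterol element was in 0 of 33, against 1.12%. These are matches of letters in a short window, several of them in GC-rich sequence, and no test was made of them.

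The 37 genes gave 666 pairs, of which 449 had r above 0, with a median of 0.11. After adjustment over the 666 (permutation test), 38 pairs were positive and 4 negative, 5.71% and 0.601% of pairs. Of all pairs of probe sets, 0.685% had an r at least as high as the lowest of the 38 and 0.380% an r at least as low as the weakest of the 4. Without vehicle replicate 5, chosen for leaving out after the values were seen, 25 positive and 4 negative pairs passed, 27 of them the same pairs. The genes with the most positive partners were Pgd (9), Fasn (8), Pnpla3 (7), Acly (6) and Elovl6 (6), and without that animal they had 5, 6, 5, 4 and 5.

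Pairs past the threshold lay between partners of Fasn, like the first pairs named here, and also outside them. Whether the pairs form groups was not tested. After Fasn and Acly the highest was Pnpla3 with Acly (r = 0.79, 0.73 without vehicle replicate 5), although the Pnpla3 signal is low. Pnpla3 with Pgd had 0.72, Acsl3 with Acss2 had 0.70, and Elovl6 with Acss2 had 0.68. Scd did not pass with Fasn but did with Pklr (0.66, and 0.52 without vehicle replicate 5) and with Acaca (0.52, and 0.31 without that animal, adjusted p = 0.315). Among the genes of storage, Cidec, a droplet fusion protein gene, correlated with Lpin1 (0.61) and Plin2 (0.54), and Dgat2 with Lpin1 (0.54). The highest signal of the 36 animals for both Lpin1 (10.49) and Cidec (9.55) was that of 970 mg/kg replicate 4. The part of that animal in their r was not tested. The 4 negative pairs were Plin2 with Lpin2 (-0.60) and Mttp with Cidec (-0.55), Dgat2 (-0.53) and Slc25a1 (-0.49).

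**Figure D5:**
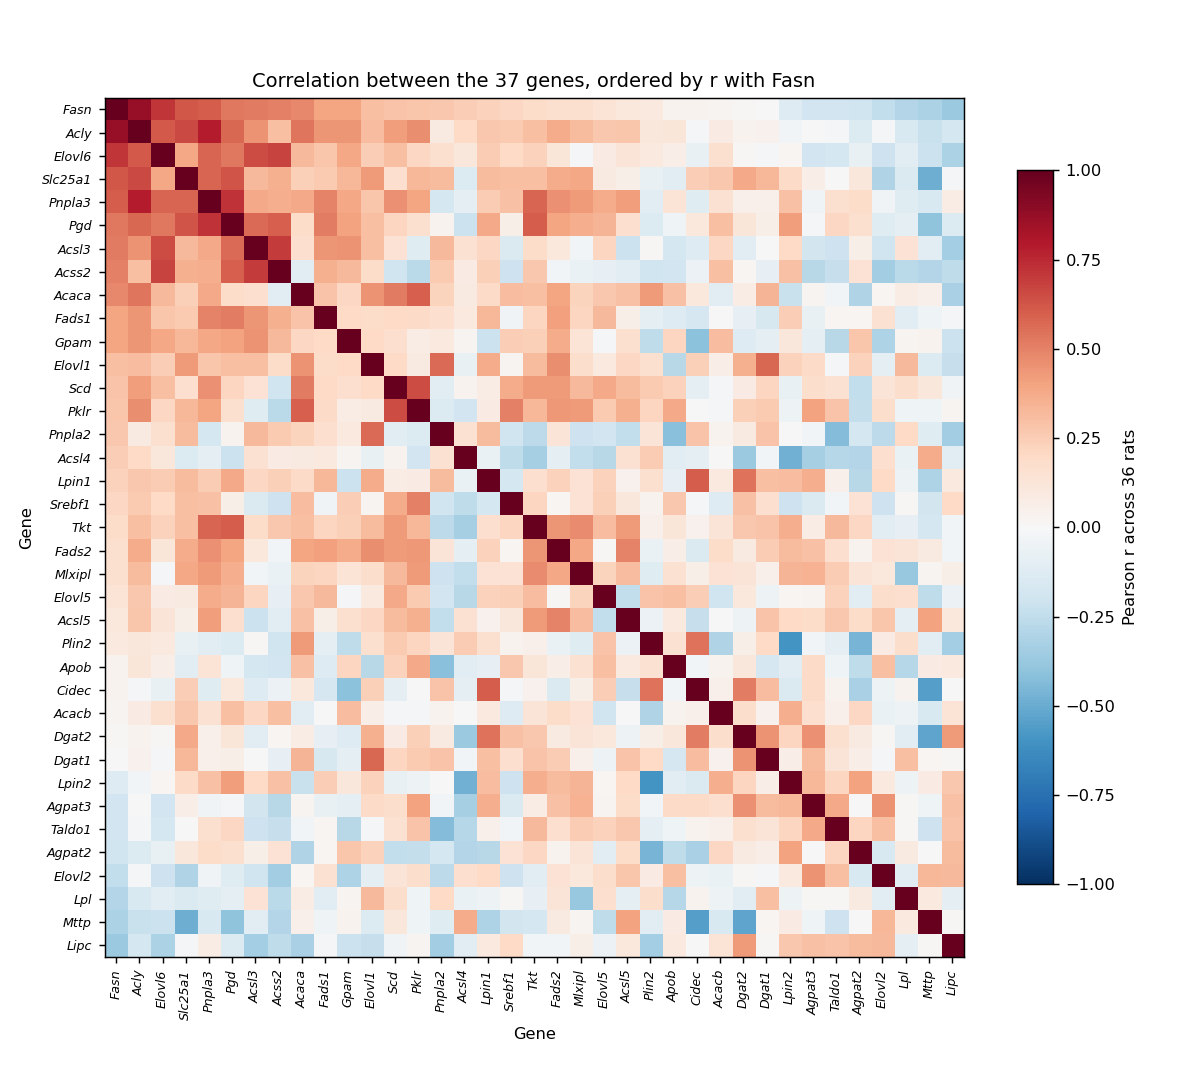
Pearson r over 36 rats (colour) between the 37 genes, both axes in the order of r with Fasn. By this order the genes closest to Fasn lie at the upper left: Acly, Elovl6, Slc25a1, Pnpla3, Pgd, Acsl3 and Acss2. Not all of them are close to each other, such as Acss2 and Acly (0.30). Mttp shows negative r with Cidec (-0.55) and Dgat2 (-0.53).

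For 15 of the 37 genes a second probe set allowed a check within the arrays. The other probe set of Lpin1 had r = 0.98 with the one used, that of Fasn 0.95, of Srebf1 0.94 and of Elovl6 0.91, and the 2 others of Pnpla3 had 0.90 and 0.89. At 970 mg/kg Srebf1 had a log2 difference of -0.25 by both probe sets, Pklr -0.26 by both, and Fasn -0.22 and -0.13. Acaca had -0.22 and -0.08 (r = 0.55), and the 2 other probe sets of Pnpla3 had -0.08 and -0.22. Plin2 was less well matched, with r = 0.39 and differences of -0.14 and 0.08, as were Lpin2 (r = 0.41) and Acsl5 (r = 0.45). No second probe set passed the limma test at any dose.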

How the data were processed

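RNA of 36 rat livers was measured on 36 arrays. RMA and affy are named in the submitters' processing notes, with versions not given in the sources used here. The deposited table holds 1 log2 value per probe set and array and was not renormalised; the number of arrays limits the precision. Of 31099 probe sets, 57 controls were left out, and 0 values were missing. Gene names come from the platform annotation, which can be old, and promoters from RefSeq. The labels do not say that each sample is a separate animal, which was assumed; p-values measure the spread between these samples.

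Each dose was compared with vehicle over all 36 samples with limma (version 3.58.1, R 4.3.3), by lmFit and a two-sided eBayes test. No filter on low values was applied. Correlations used 100000 permutations (numpy 2.4.6), and both methods were tested on simulated data. Genes named were the regulators and committed steps, the 3 of smallest p per test, the 5 of largest and smallest spread, and the 5 of highest and lowest r with Fasn; pairs of genes, the partners past the threshold and the genes without vehicle replicate 5 were picked after their values were seen. The members and gene lists were chosen with earlier results of these data known. Alternatives were a replicate block, centring, cyclic loess, an intensity trend, unmoderated variances, array weights, an RNA quality covariate, averaged probe sets, a filter on low values, a threshold of 0.1, other dose scales, 2 groups alone, and each animal or group left out.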

Additional observations from a re-analysis of the deposited data

Results flagged for a closer look

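In 222 groups of 6 animals (37 genes in 6 groups) the highest or lowest animal was compared with its nearest neighbour. The gap was more than 0.625 of the group's range, Dixon's limit, for 20 values, several of them from the same animals. Chance passes that limit in about 1 group in 20. Values are log2 signals.

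Several were high values of Lpin1, with 9.72 at 0.1 mg/kg (replicate 1), 9.08 at 9.71 mg/kg (replicate 4) and 10.49 at 970 mg/kg (replicate 4). The last animal was also high for Cidec (9.55) and Elovl1 (8.63). Replicate 3 at 0.1 mg/kg was high for Elovl6 (7.95) and Pnpla3 (5.42). Vehicle replicate 5 was high for Pnpla3 (6.86). Replicate 1 at 9.71 mg/kg, the animal of highest Fasn, was high for Slc25a1 (10.31) and low for Acsl4 (11.35) and Mttp (10.999). Replicate 1 at 97.1 mg/kg was low for Cidec (8.75) and Lpl (5.92). Replicate 6 at 0.97 mg/kg was low for Acsl4 (11.34) and high for Lpin2 (7.99).

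The remaining 5 were single values: Slc25a1 was low at 0.1 mg/kg (10.02, replicate 2), Pnpla2 high at 0.1 mg/kg (7.83, replicate 4), Elovl5 high at 97.1 mg/kg (12.62, replicate 2) and Gpam high at 970 mg/kg (6.96, replicate 6), and in vehicle Lipc was low (11.78, replicate 4).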

How the results depend on the processing

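The count of genes of the set past the limma threshold was 0 in every comparison, with each of the 36 animals left out in turn and under 13 other alternatives. The count over all probe sets ranged from 0 to 3 with an animal left out, and its largest change was in the slope with dose in mg/kg in place of the dose step, where 15 probe sets passed, against 2. The cause was not tested. Animals with the same number did not deviate together: over 90 pairs of groups and numbers their residuals correlated at a mean r of 0.0048, from -0.25 to 0.26, with 15 over 0.1. With the replicate number as a block, 0 genes of the set passed at any dose, and the count over all probe sets was 0, 0, 0, 2 and 2 from the lowest dose to the highest, as without it. At 970 mg/kg 1 log2 difference moved by more than the spread between animals, that of Apob, to 0.15 with its probe sets averaged. The number of measures correlated with Fasn was 12, from 11 to 13 with an animal left out and from 10 to 17 under the other 12 alternatives. Acss2 did not pass without the 0.1 or the 97.1 mg/kg group (r = 0.43 and 0.46), Acsl3 without the 0.1 mg/kg group (0.45), Me1 without the 97.1 mg/kg group (0.45) and Acaca without vehicle (0.44). Probe sets near background, such as those of Acacb and Pnpla3, limit what a difference can show.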

Other observations

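Beyond the genes of fat synthesis, the probe sets that varied most closely with Fasn between animals belonged largely to sterol synthesis, a list read off after the values were seen and therefore given without a test. After Acly (r = 0.87) came Fdps, farnesyl diphosphate synthase (0.83), Nsdhl (0.77), Msmo1 (0.77), Sqle, squalene epoxidase (0.77), Mvd (0.77), Fdft1, squalene synthase (0.74), and, after Elovl6 (0.72), Lss, lanosterol synthase (0.71). Also among the 12 closest were Mcfd2 (0.77), Azin1 (0.75) and 1 probe set that names no gene (0.72). All values are over the same 36 arrays. Within the set of 37 genes, ranks among all probe sets were 1 for Acly, 11 for Elovl6, 35 for Slc25a1, 40 for Pnpla3 and 94 for Pgd.

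Of 9 fasting and clock genes measured beside the pathway, 0 passed the limma test at any dose. At an unadjusted p under 0.05 there were 0, 1, 1, 1 and 2 of them from the lowest dose to the highest (0% to 22.2%, against 4.46% to 5.42% of all probe sets); with 9 genes, 1 gene is 11.1%. Bmal1, a core clock gene, had a log2 difference of 0.23 at 0.97 mg/kg. Pdk4, which restrains glucose oxidation in fasting, had 0.88 at 9.71 mg/kg, and Pck1, of gluconeogenesis, had -0.52 at 97.1 mg/kg. At 970 mg/kg the clock genes Nr1d1 and Dbp had -0.61 and -0.63. By the slope on dose step, 3 of the 9 had an unadjusted p under 0.05, against 5.70% of all probe sets: Pck1 with -0.08 per step, Dbp with -0.10 and Nr1d1 with -0.10, each at a limma adjusted p of 0.863. The time of day at which livers were taken was not analysed here.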
